A study of Homo sapiens with 27 samples.

Results

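The MYC locus on chromosome 8 was examined as a target of transposon insertion in HCT116, an established cell line from a human colorectal carcinoma. The locus was taken as chr8:126500000-128999999 (GRCh38), a window of 2.5 Mb with the genes CCAT1, CASC8, MYC and PVT1, and was divided into 50 steps of 50 kb. All sites of the 27 libraries that lay in the window were members. They came to 5441 distinct positions, of 2955284 in the whole genome, and to 14864 sites when each library was counted apart, of 5365773. MYC was used to divide the window into 4 parts. The part upstream of MYC covered 1235 kb (49.4% of the window), MYC and the stretch up to PVT1 59.1 kb (2.36%), PVT1 307 kb (12.3%) and the part beyond PVT1 899 kb (35.9%). In that order the parts held 3521, 125, 590 and 1205 distinct positions.

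MYC encodes a transcription factor that drives growth and proliferation and is bound to its partner MAX on DNA. The gene lies beside a long desert of few coding genes at chromosome band 8q24, which holds enhancers that act on MYC over long distances and are strong in colorectal tumours. CCAT1 is a long non-coding RNA made from such a colorectal super-enhancer, CASC21 and CASC8 are long non-coding RNAs of the neighbouring enhancer region, and PVT1 is a long non-coding RNA gene on the far side of MYC. The piggyBac transposase inserts its transposon at TTAA.

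In the study, each cell pool received a self-reporting transposon, which transcribes across its own end so that the insertion site can be read from RNA, together with a transposase, and was kept in 3 µg/ml puromycin for 2 weeks. The 27 libraries fell into 9 groups of 3. The wild-type transposon was used in WT_PB with piggyBac, in WT_hyPB with its hyperactive form, in WT_rePB with its re-engineered form and in WT_rehyPB with the form that is both. The short transposon was used with piggyBac in short_PB and with the hyperactive form in short_hyPB. The symmetric transposon was used with the re-engineered form in sym_rePB and with the form that is both in sym_rehyPB. The last group is labelled as a wild-type transposon with piggyBat (WT_PBat), a related transposase from a bat. All groups shared the cell line and the selection. The labels do not say what was changed in the re-engineered, short and symmetric forms, nor whether the replicates were separate cultures, so p-values measure only the spread between these libraries, which may be technical.

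The libraries had unequal depth. The 12 libraries of the wild-type transposon with a piggyBac form, called deep here, held 336323 to 570354 sites each, and the other 15 held 2814 to 9212. The window held 966 to 1496 sites in each deep library and 15 to 46 in each of the other 15. Levels are therefore given as sites per 10000 sites of the library, but a deep library also lists many low peaks that a shallow one does not, and the share of the locus changed with peak height, as given below. Some replicates were not independent. Between replicates 1 and 2 of WT_hyPB, 75.4% and 76.3% of the sites were common to both, and between replicates 1 and 3 of WT_PBat 52.5% and 42.5%, where other pairs of the same group shared at most 29.0%. In the window these pairs had 942 and 11 sites in common. Calls that were lost with the linked libraries counted once are named with their values.

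**Figure D1:**
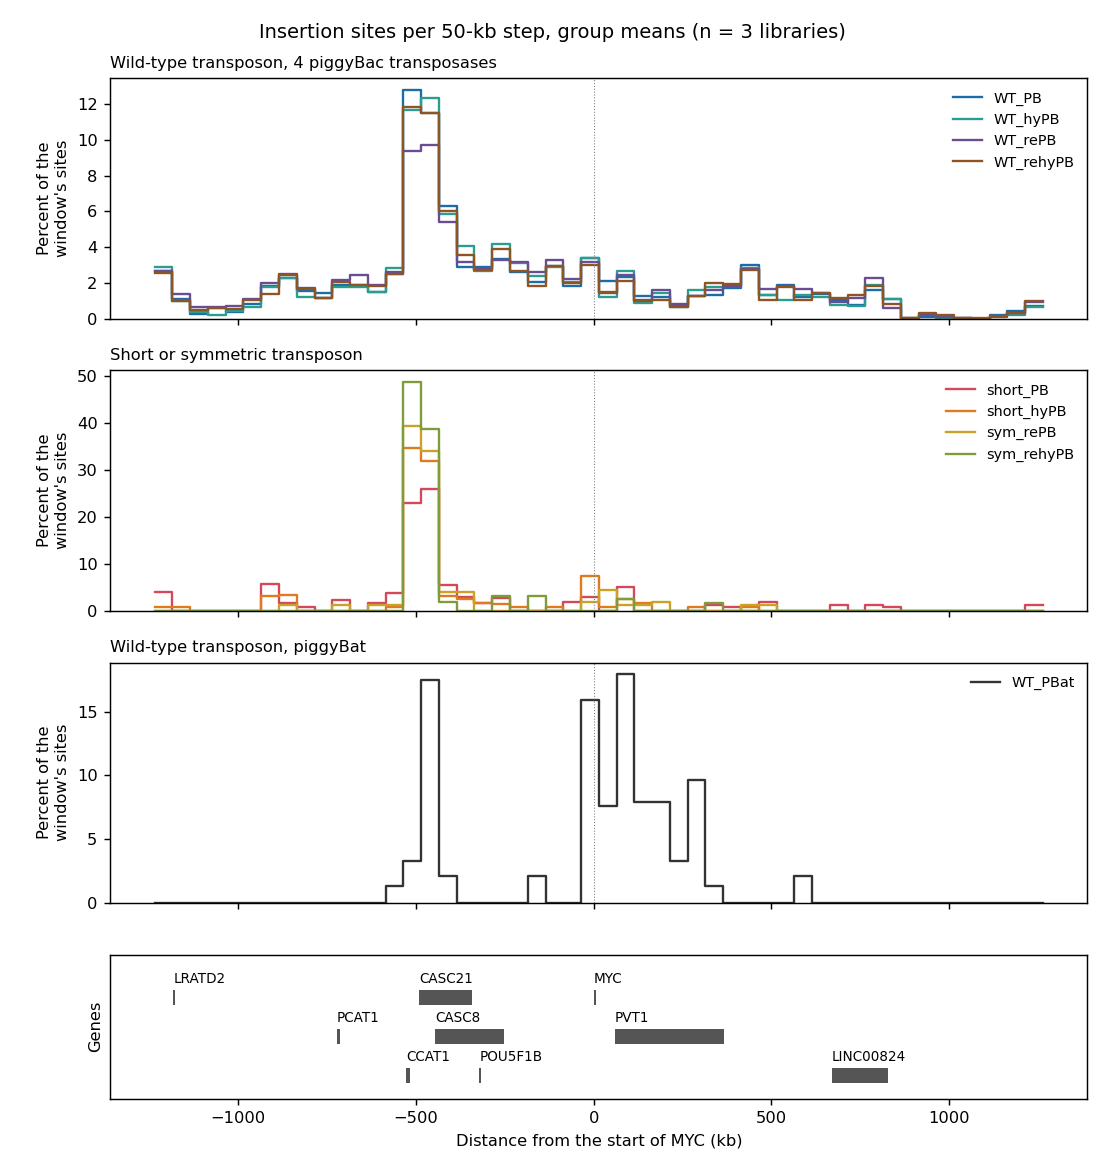
Share of the window's sites in each 50-kb step (vertical axis, percent, group means of 3 libraries) against distance from the start of MYC in kb, with the genes drawn below. The piggyBac groups peak in the 2 steps that hold CCAT1 and CASC21, and the piggyBat group peaks in PVT1.

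With the wild-type transposon, the MYC locus was among the fullest windows of the genome. In a tiling of the genome into 1181 windows of the same length it ranked 6 in both WT_PB and WT_rePB, 5 in WT_rehyPB and 7 in WT_hyPB. Its level was 26.7, 28.2 and 26.7 sites per 10000 in the WT_PB libraries, with a mean of 27.2 ± 0.88 (SD, n = 3). It was 28.7, 29.2 and 28.9 in the WT_hyPB libraries, 26.2, 26.2 and 25.5 in the WT_rePB libraries, and 28.7, 28.4 and 27.5 in the WT_rehyPB libraries. These 4 groups lay between 3.05 and 3.57 times the median window of the genome. The window took 4.48% to 5.07% of all chromosome 8 sites in them.

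The level of the locus was higher with the short and the symmetric transposon than with the wild-type one. The short_PB libraries had 37.0, 29.9 and 44.5 sites per 10000, and the short_hyPB libraries 61.8, 55.1 and 54.6. The sym_rePB libraries had 46.7, 64.0 and 82.7, and the sym_rehyPB libraries 48.1, 47.4 and 56.9. All 12 of these libraries lay above all 12 deep libraries. Of the piggyBat libraries, at 23.7, 23.2 and 28.2, 2 lay below the deep libraries and 1 among them.

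In order of their means the groups ran from WT_PBat (25 ± 2.75 sites per 10000, SD, n = 3) through WT_rePB, WT_PB, WT_rehyPB, WT_hyPB, short_PB, sym_rehyPB and short_hyPB to sym_rePB (64.5 ± 18). Neighbours whose libraries overlapped were WT_PBat and WT_rePB, WT_PB and WT_rehyPB, WT_rehyPB and WT_hyPB, sym_rehyPB and short_hyPB, and short_hyPB and sym_rePB. The libraries of WT_rePB and WT_PB, of WT_hyPB and short_PB, and of short_PB and sym_rehyPB did not overlap.

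Each change was tested over the pairs of groups that differ by it, with a quasi-Poisson model of the site counts fitted on all windows of the genome and Benjamini-Hochberg adjustment over 1127 windows. Against the wild-type transposon under the same 2 transposases, the short one raised the window by 0.72 on the log2 scale (SE 0.098, 95% interval 0.505 to 0.934, quasi-Poisson adjusted p = 0.000483). Over all windows, 16.2% were called higher in that comparison, and the median change was -0.50. Under the re-engineered transposases, the symmetric transposon raised the window over the wild-type one by 1.08 (SE 0.132, 95% interval 0.795 to 1.374, quasi-Poisson adjusted p = 0.000364), with 12.9% of windows called higher and a median of -0.90.

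Both rises depended on which sites were counted. When each library was reduced to its 2814 tallest sites, the number in the smallest library, the short transposon gave -0.42 (quasi-Poisson adjusted p = 0.398) and the symmetric one -0.17 (adjusted p = 0.855). The lowest height kept was 100 to 110 in the deep libraries and 5 to 9 in the short and symmetric ones, so unlike heights were compared. On that count the group means of the window level ran from 59.2 ± 10.3 (WT_rehyPB) to 86.5 ± 16.0 (WT_rePB) in the deep groups (SD, n = 3), and from 39.1 ± 9.4 to 69.9 ± 20.2 in the short and symmetric groups. The 2 kinds of group then overlapped. Such small counts also limit the test, since 0 of 1127 windows were called in either comparison, with 156 (short) and 95 (symmetric) under an unadjusted p of 0.05, and limma voom was not run on them. Depth of the library moved with the transposon in these comparisons, and its part in the rise cannot be told apart from that of the transposon.

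**Figure D2:**
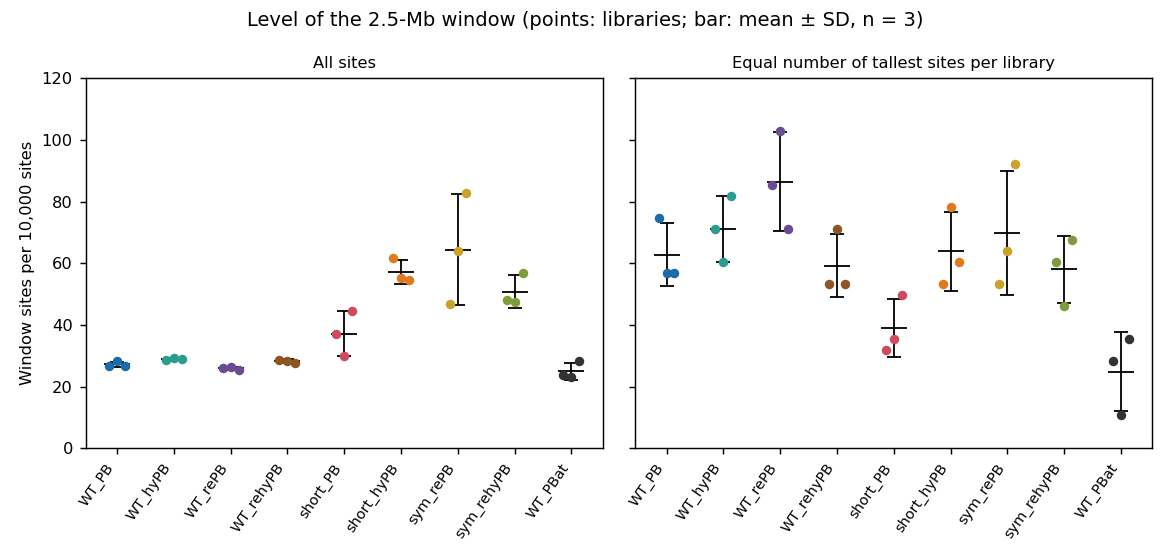
Level of the window in sites per 10000 sites (vertical axis) for every library by group, over all sites (left) and over the 2814 tallest sites of each library (right). Points are libraries and bars are mean ± SD (n = 3). The short and symmetric groups lie above the deep groups on the left and overlap with them on the right.

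Averaged over their pairs of groups, the other changes did not pass the threshold for the window. The hyperactive transposase, compared with its standard counterpart over 4 pairs of groups, gave 0.13 (SE 0.082, 95% interval -0.055 to 0.305, quasi-Poisson adjusted p = 0.841), where 0% of windows were called, 64 of them had an unadjusted p under 0.05 and limma voom called 19. Its pairs were unlike in size and sign. WT_rehyPB lay above WT_rePB by 0.12 (SE 0.034, quasi-Poisson adjusted p = 0.0161), where 4.97% of windows were called higher. WT_hyPB lay above WT_PB by 0.09 (adjusted p = 0.0526; 7.9% called higher), while the short pair gave 0.62 (adjusted p = 0.454) and the symmetric pair -0.33 (adjusted p = 0.997). The same-numbered libraries of WT_rePB and WT_rehyPB deviated together, and with the replicate number as a block in these 6 libraries the first value was 0.12 (adjusted p = 0.00616). That call was lost without WT_rePB replicate 3, WT_rehyPB replicate 1 or WT_rehyPB replicate 2 (adjusted p 0.0766 to 0.0802), and over the tallest sites the difference was -0.55. Re-engineering gave -0.05 (adjusted p = 0.131), where 20.4% of windows were called in either direction. The piggyBat group differed from WT_PB by -0.10 (adjusted p = 0.655), where 53.6% of windows were called in either direction.

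Within the deep groups, tall peaks lay in the locus more often than low ones. Peak height is the greatest coverage of a peak in the authors' deposited lists. In WT_PB the window held 23.9 ± 1.15 sites per 10000 sites of height 5 to 6 and 47.6 ± 2.39 per 10000 sites of height 50 or more (SD, n = 3). Over the 4 deep groups these 2 levels ran from 21.4 to 24.5 and from 39.4 to 57.6. The share of the window's sites that lay in its 2 fullest steps ran from 13.5% to 16.7% at height 5 to 6 and from 41.6% to 55.9% at height 50 or more. The median height in the 2 fullest steps was 18 to 24.5 per library, against 11 to 14 in the other steps.

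**Figure D3:**
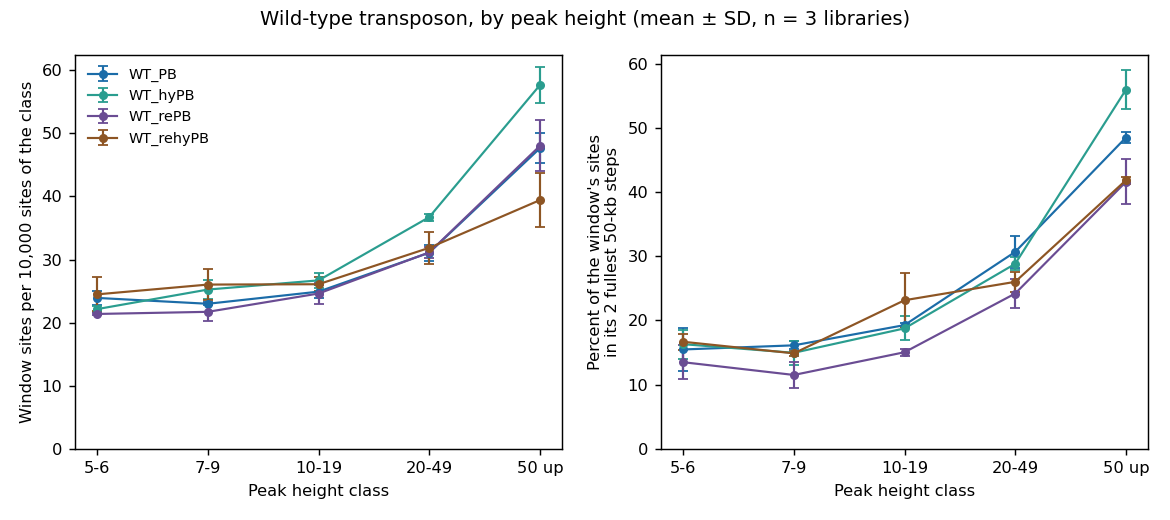
Left, window sites per 10000 sites of a peak height class, and right, percent of the window's sites that lie in its 2 fullest 50-kb steps, for the 4 wild-type piggyBac groups (mean ± SD, n = 3). Both rise from the class of height 5 to 6 to that of height 50 or more in each group.

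Insertions were gathered at the CCAT1 and CASC21 genes. The 2 fullest steps over the deep groups lay side by side at chr8:127200000-127299999, which is 4% of the window's length and ends 435 kb before MYC. They hold CCAT1 and the parts of CASC21 and CASC8 with the lower coordinates. Their means over the deep groups were 3.16 and 3.12 sites per 10000, and the next were the steps from chr8:127300000 (1.63), chr8:127450000 (1.02) and chr8:127350000 (0.949). The lowest 5 all lay beyond PVT1 and held 0.00443 to 0.0403 sites per 10000. The left one of the pair was the fullest step in WT_PB, WT_rehyPB, short_hyPB and both symmetric groups, and the right one in WT_hyPB, WT_rePB and short_PB. In WT_PBat the step from chr8:127800000, inside PVT1, was the fullest.

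With all sites counted, those 2 steps took a larger share of the window's sites with the altered transposons. The share was 24.1%, 25.4% and 23.3% in the WT_PB libraries, and 50%, 40.7% and 56.1% in the short_PB libraries. It was 18.6%, 18.4% and 20.2% in the WT_rePB libraries, and 86.7%, 72.2% and 61.5% in the sym_rePB libraries. In sym_rehyPB it was 94.7%, 83.3% and 84.6%, or 55 of 63 sites. All 12 short and symmetric libraries lay above all deep libraries, as they did for the window, and the same reading of depth holds here. In WT_PBat the share was 20.8% ± 2.48 (SD, n = 3). Of the 50 steps, 0 to 2 had no site in a deep group, while 27 and 31 were without one in short_PB and short_hyPB, 35 and 43 in sym_rePB and sym_rehyPB, and 36 in the piggyBat group. Over the 2814 tallest sites per library, the 2 fullest steps held 36 of 53 window sites in WT_PB and 42 of 60 in WT_hyPB. They held 45 of 73 in WT_rePB and 35 of 50 in WT_rehyPB. The altered groups had 19 of 33 (short_PB), 42 of 54 (short_hyPB), 42 of 59 (sym_rePB) and 43 of 49 (sym_rehyPB). The level of the 2 steps was then 41.5 to 53.3 sites per 10000 in the deep groups. In the short and symmetric groups it was 22.5 to 50.9.

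The test of single steps was fitted on the 12 deep libraries, where the counts were high enough. Re-engineering lowered the left step of the pair, chr8:127200000-127249999, by a log2 change of -0.26 (SE 0.072, quasi-Poisson adjusted p = 0.0429), and 0.939% of 23424 steps were called lower. That call was lost in 8 of 12 fits that left out 1 library and with the linked libraries counted once (-0.25, adjusted p = 0.0911). The hyperactive transposase gave no call in the window, and 0% of all steps were called, with 1723 under an unadjusted p of 0.05 and 195 called by limma voom. A fit on all 27 libraries was added after the data were seen. In it the short transposon raised the left and the right step of the pair by 1.96 and 2.01 (quasi-Poisson adjusted p = 0.00528 and 0.00522). Of all steps 0.555% were called higher, and the median change over all steps was 1.46. The symmetric transposon raised the 2 steps by 3.05 and 2.92 (0.696% called higher), where the median had no finite value. The limit of depth given for the window holds for these values too.

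Bins of 500 kb placed the differences along the locus. The bin at chr8:127000000-127499999, which holds CCAT1, CASC21 and CASC8, had 12.9 ± 0.84 sites per 10000 in WT_PB and 11.1 ± 0.10 in WT_rePB, with 14.1 ± 0.41 and 13.5 ± 1.02 for their hyperactive counterparts (SD, n = 3). It had 26.2 ± 8.5 in short_PB and 53.5 ± 6.9 in sym_rePB, with 43.8 ± 9.0 and 46.9 ± 3.0 for their hyperactive counterparts. All altered transposon groups lay above the deep ones. The short transposon raised it by 1.34 (SE 0.115, quasi-Poisson adjusted p = 0.000225), with 4.59% of bins called higher, and the symmetric one by 2.04 (SE 0.142, adjusted p = 5.58e-05), with 3.20% called higher. Re-engineering lowered it by a log2 change of -0.14 (SE 0.035, adjusted p = 0.0114), with 3.18% of bins called lower. This last call was lost without WT_PB replicate 2 (adjusted p = 0.077), without WT_rehyPB replicate 3 (adjusted p = 0.128) and with limma voom (adjusted p = 0.0851) or limma-trend (adjusted p = 1). By pair it was -0.21 between WT_rePB and WT_PB (adjusted p = 0.0062; 2.86% of bins called lower; 0.121 without WT_PB replicate 2), and -0.06 between WT_rehyPB and WT_hyPB (adjusted p = 0.630). The hyperactive transposase gave 0.24 (adjusted p = 1), where 0% of bins were called, 140 had an unadjusted p under 0.05 and limma voom called 99. Among its pairs, WT_rehyPB lay above WT_rePB by 0.27 (SE 0.050, quasi-Poisson adjusted p = 0.000414; 0.419% of bins called higher), and by 0.28 with the replicate number as a block (adjusted p = 1.66e-05). That call held in the 6 fits that left out 1 library, and was lost with limma-trend. The other pairs gave 0.13 (WT_hyPB over WT_PB, adjusted p = 0.127), 0.74 (short, 0.757) and -0.18 (symmetric, adjusted p = 1).

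The bin with MYC and most of PVT1, chr8:127500000-127999999, changed in the piggyBat comparison. Its level was 15.8 ± 4.9 sites per 10000 in WT_PBat and 5.57 ± 0.13 in WT_PB (SD, n = 3), and it rose by 1.54 (SE 0.279, quasi-Poisson adjusted p = 0.0192), with 5.49% of bins called higher. The call was lost without WT_PBat replicate 1 (adjusted p = 0.127), without replicate 3 (adjusted p = 0.205) and with the linked libraries counted once (1.35, adjusted p = 0.205). The bin at chr8:126500000-126999999 held no piggyBat site and was called lower (quasi-Poisson adjusted p = 0.040), where 0.999% of bins were. With no fold change to compare, this call was not followed through the alternative settings. Over all 5007 bins, those called lower with piggyBat went from 50 to 3 with the linked libraries counted once. The level of the bin at chr8:126500000-126999999 can only be bounded. It was at least 2.69-fold lower, since 3 counts over the group, the floor used here, allow 1.31 sites per 10000 against 3.51 in WT_PB. This floor covers counting error only.

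CCAT1 (chr8:127207382-127219268) had most sites for its length among the 4 named genes, at 41.1 sites per kb when the sites of the 12 deep libraries were summed. Its level was 0.98, 1.18 and 0.97 sites per 10000 in the WT_PB libraries and 7.61, 1.11 and 4.34 in the short_PB libraries, from 7, 1 and 4 sites. It was 0.76, 0.67 and 0.72 in WT_rePB and 12.5, 7.11 and 6.36 in sym_rePB. The short_PB libraries overlapped with WT_PB and the sym_rePB libraries did not overlap with WT_rePB. In the gene fit CCAT1 rose by 2.58 with the short transposon (SE 0.317, quasi-Poisson adjusted p = 0.0179), where 0.609% of 9528 genes were called higher, and by 3.37 with the symmetric one (SE 0.394, adjusted p = 0.0185), where 0.798% were. The first call was lost in 3 of 12 fits that left out 1 library (without short_PB replicate 1 or 3, or short_hyPB replicate 1; adjusted p up to 0.226) and the second in 5 of 12 (without any sym_rePB replicate, or sym_rehyPB replicate 1 or 2; up to 0.203). Both were also lost without the filter on low counts (adjusted p = 0.0702 and 0.0664), and the second on the median scale (1.40, adjusted p = 0.0531). Over the tallest sites only, the 2 changes were -1.01 and -0.41 and neither was called. In WT_PBat 1 site fell in CCAT1.

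CASC21 (chr8:127244637-127392631), which overlaps CASC8, had 20.9 summed sites per kb. It rose by 1.56 with the short transposon (quasi-Poisson adjusted p = 0.00352) and by 2.46 with the symmetric one (adjusted p = 0.000431), and fell by 0.19 with re-engineering (adjusted p = 0.0363), where 1.51% of genes were called lower. The first call was lost without short_PB replicate 3 (adjusted p = 0.0613), and the third in 9 of 12 fits that left out 1 library and with the linked libraries counted once (-0.18, adjusted p = 0.0679). On the median scale the short and symmetric changes were 0.60 (adjusted p = 0.0568) and 0.49 (adjusted p = 0.0799), and over the tallest sites -0.10 and 0.20 (adjusted p = 1 for each). A site in the stretch where CASC21 and CASC8 overlap was counted for both.

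CASC8 (chr8:127289676-127482139) had 13 summed sites per kb, and none of the 5 comparisons was called for it by the quasi-Poisson test. It had 4.43, 5.16 and 4.59 sites per 10000 in the WT_PB libraries, 6.52, 5.54 and 15.2 in short_PB and 12.1, 8.70 and 7.99 in short_hyPB. It had 4.09, 4.33 and 4.15 in WT_rePB, 9.34, 14.2 and 6.36 in sym_rePB and 2.53, 7.89 and 10.9 in sym_rehyPB. The short and sym_rePB libraries all lay above the WT_PB and WT_rePB ones, while sym_rehyPB had libraries on both sides. The changes were 0.91 for the short transposon (quasi-Poisson adjusted p = 0.198) and 0.88 for the symmetric one (adjusted p = 0.540). limma voom called both higher (adjusted p = 0.0181 and 0.00207), and on the median scale the symmetric change was called lower (-1.09, adjusted p = 0.0416). At low depth the median scale for genes rests largely on an added count of 0.5, as given for PVT1 below. In WT_PBat CASC8 had 1 site, in replicate 2, and the comparison with WT_PB gave -3.43 (adjusted p = 0.144), with calls by limma voom (-2.31, adjusted p = 4.66e-06) and on the median scale (-4.46, adjusted p = 0.0267).

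MYC itself (chr8:127735434-127742951) held few sites. The WT_PB libraries had 8, 6 and 9 sites in it, the WT_hyPB libraries 8, 9 and 8, the WT_rePB libraries 7, 8 and 7, and the WT_rehyPB libraries 5, 5 and 8. That is 0.190 ± 0.021, 0.197 ± 0.022, 0.132 ± 0.007 and 0.157 ± 0.026 sites per 10000 (SD, n = 3), or 11.7 summed sites per kb, less than CCAT1, CASC21 and CASC8 and more than PVT1 (4.15). The short transposon had 1 site in MYC with piggyBac and 3 with hyperactive piggyBac, and the symmetric transposon had none in either group. The piggyBat libraries had 2, 1 and 5 sites, or 2.78, 1.45 and 5.64 per 10000, all above the deep libraries. MYC did not pass the filter on low counts. Without the filter, the piggyBat comparison gave 4.19 (unadjusted p = 0.000263, quasi-Poisson adjusted p = 0.086).

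PVT1 (chr8:127794524-128101256) was the gene of the locus that took most piggyBat sites. Its level was 13.9, 10.1 and 14.7 sites per 10000 in the WT_PBat libraries, from 10, 7 and 13 sites, and 2.42, 2.25 and 2.23 in the WT_PB libraries. The groups did not overlap. PVT1 rose by 2.502 with piggyBat (SE 0.277, 95% interval 1.89 to 3.12, quasi-Poisson adjusted p = 0.0046), where 1.54% of genes were called higher. The call was lost with the linked libraries counted once, which is the fit without WT_PBat replicate 3 (2.39, adjusted p = 0.0794), on the median scale (1.47, adjusted p = 0.0552) and over the tallest sites only (1.42, adjusted p = 1). The median scale sets each library by its median gene in place of its total of sites. A shallow library held 2814 to 9212 sites against 9528 genes tested, so many genes had none in it. A count of 0.5 is added to each gene, and at low depth that scale rests largely on it. Values on the median scale for PVT1 and the other genes are therefore poorly founded between deep and shallow libraries. In the other groups the mean level of PVT1 ran from 2.19 to 3.31 sites per 10000 and none of the other comparisons was called by the quasi-Poisson test on that scale; on the median scale the symmetric transposon gave -1.70 (adjusted p = 0.0361).

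Genes outside the locus whose group means followed those of PVT1 most closely were sought among the 929 genes with a site in every group. Likeness was Pearson's r of log2 sites per 10000 (pseudocount 0.1) over the 9 group means, and its median over these genes was 0.228. The 5 highest were HMGA2 (0.982), which encodes a chromatin architectural protein, DCBLD2 (0.974), MIR222HG (0.974), the host gene of a miRNA, UBAP2 (0.947) and TMX2-CTNND1 (0.943). Each was highest in WT_PBat: HMGA2 had 28.1 sites per 10000 there and 4.60 to 7.502 in the other groups. Such an r rests mostly on the 1 high group, and depth also differs between the groups.

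**Figure D4:**
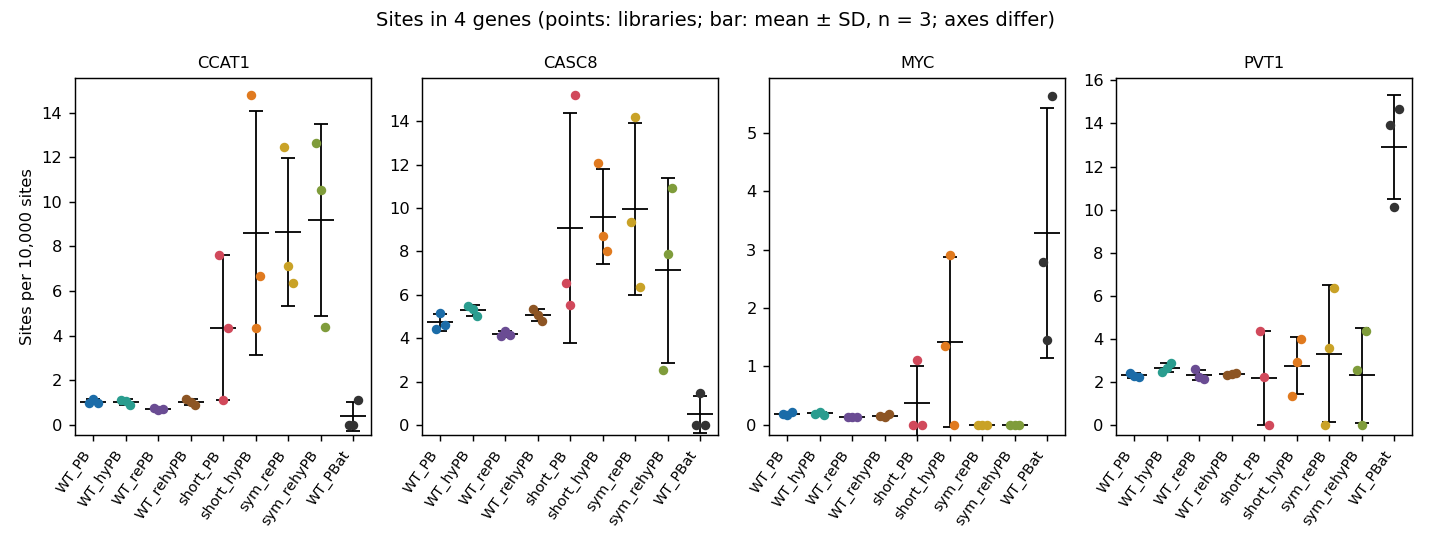
Sites per 10000 sites of the library (vertical axis, a separate scale for each gene) in CCAT1, CASC8, MYC and PVT1, for every library by group. Points are libraries and bars are mean ± SD (n = 3). CCAT1 is highest in the short and symmetric groups and PVT1 in the piggyBat group.

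The window holds 34 annotated genes, of which 3 are protein coding (LRATD2, POU5F1B and MYC), 19 lncRNA genes, 7 pseudogenes and 5 miRNA genes, and 25 of them had a site. Of the 9 that passed the filter on low counts, 2 rose with the short transposon, 2 rose with the symmetric one, 1 fell with re-engineering, 1 rose with piggyBat and 0 were called with the hyperactive transposase, where 0% of all genes were called, 101 had an unadjusted p under 0.05 and limma voom called 30. CCAT2, another colorectal enhancer transcript, had 30.3 summed sites per kb in the deep libraries, LRATD2 5.80 and POU5F1B, a retrogene of the POU5F1 family, 1.32. Of the other genes with most sites for their length, LOC124902020, an lncRNA gene beyond PVT1, had 9.51 summed sites per kb in the deep libraries and 343 sites in all, while MIR1204 (5 sites), MIR1206 (2 sites) and RNU6-869P (1 site) are very short. The share of window sites inside a gene was 60.9% to 62.2% in the deep groups, 74.8% to 80.7% in the short and symmetric groups and 85.1% in WT_PBat. Among 13 genes of the MAX network, which includes the partners and antagonists of MYC, only MAX, MXI1, MGA and MLXIPL passed the filter, and none was called in any of the 5 comparisons. Of all 9528 genes, 0 (hyperactive), 208 (re-engineering), 62 (short), 76 (symmetric) and 153 (piggyBat) were called. At such shares, the lack of a call among so few genes says little about the network. MYCN and MYCL, the other MYC family genes, had 0 to 8 sites in each group.

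The share of the window's sites in its 4 parts was tested by an exact two-sided permutation test over libraries, with adjustment over 20 tests. Upstream of MYC lay 73.3%, 72.7% and 70.1% of the window's sites in the WT_PB libraries and 82.4%, 77.8% and 95.1% in the short_PB libraries. The short transposon raised this share by 15.2 percentage points and the symmetric one by 19.5 (exact permutation p = 0.005 and adjusted p = 0.0167 for each, 0.005 being the smallest p the test allows). The share beyond PVT1 fell by 11.9 percentage points with the short transposon and 16.3 with the symmetric one (exact permutation adjusted p = 0.0167 for each). These shares too were nearer over the tallest sites only, where the upstream differences were 3.68 and 3.08 points and not called.

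PVT1's share of the window fell by 4.299 percentage points with the symmetric transposon (exact permutation adjusted p = 0.0167), a call lost without any one of the 6 WT_rePB and WT_rehyPB replicates, where the smallest adjusted p was 0.0571. With the short transposon the difference was -3.18 points (adjusted p = 0.177). These are shares of the window's own sites, which also fall when another part gains. PVT1's level was 3.31 sites per 10000 in sym_rePB against 2.32 in WT_rePB. It was 2.30 in sym_rehyPB against 2.37 in WT_rehyPB, and each symmetric group had 3 sites there. In the gene fit the symmetric transposon gave 0.27 for PVT1 (quasi-Poisson adjusted p = 0.744). The hyperactive transposase changed the share beyond PVT1 by -2.70 percentage points (adjusted p = 0.0167, exact permutation p = 0.002). By pair this was -1.19 (WT_hyPB against WT_PB), -0.63 (WT_rehyPB against WT_rePB), -6.41 (short) and -2.56 (symmetric). Per 10000 sites of the library, the part beyond PVT1 had 4.44 in WT_hyPB and 4.50 in WT_PB. It had 4.86 in WT_rehyPB and 4.64 in WT_rePB, a difference of the other sign. The hyperactive groups were lower with the short transposon (0.48 against 2.56) and the symmetric one (0 against 2.12). The short pair rested on 7 sites in short_PB and 1 in short_hyPB, and the symmetric pair on 2 in sym_rePB and 0 in sym_rehyPB. The call was lost over the tallest sites only (-1.85 points, exact permutation adjusted p = 0.411). Re-engineering raised the share beyond PVT1 by 1.59 points (exact permutation p = 0.015, adjusted p = 0.0429). The re-engineering call was lost in 10 of 12 tests that left out 1 library and with the linked libraries counted once (1.47 points, adjusted p = 0.0714). No difference in the stretch from MYC to PVT1 was called.

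The piggyBat libraries spread over the parts in another way. Upstream of MYC lay 29.4%, 31.3% and 28.0% of their window sites, and PVT1 held 58.8%, 43.8% and 52.0%, against 9.08%, 7.97% and 8.36% in WT_PB. The differences from WT_PB were -42.5 percentage points upstream, 13.9 from MYC to PVT1, 43.1 in PVT1 and -14.5 beyond. In each of the 4 parts the groups did not overlap. With 3 libraries against 3 the smallest exact p is 0.1, so none could be called (exact permutation adjusted p = 0.167 for each), and replicates 1 and 3 were linked.

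**Figure D5:**
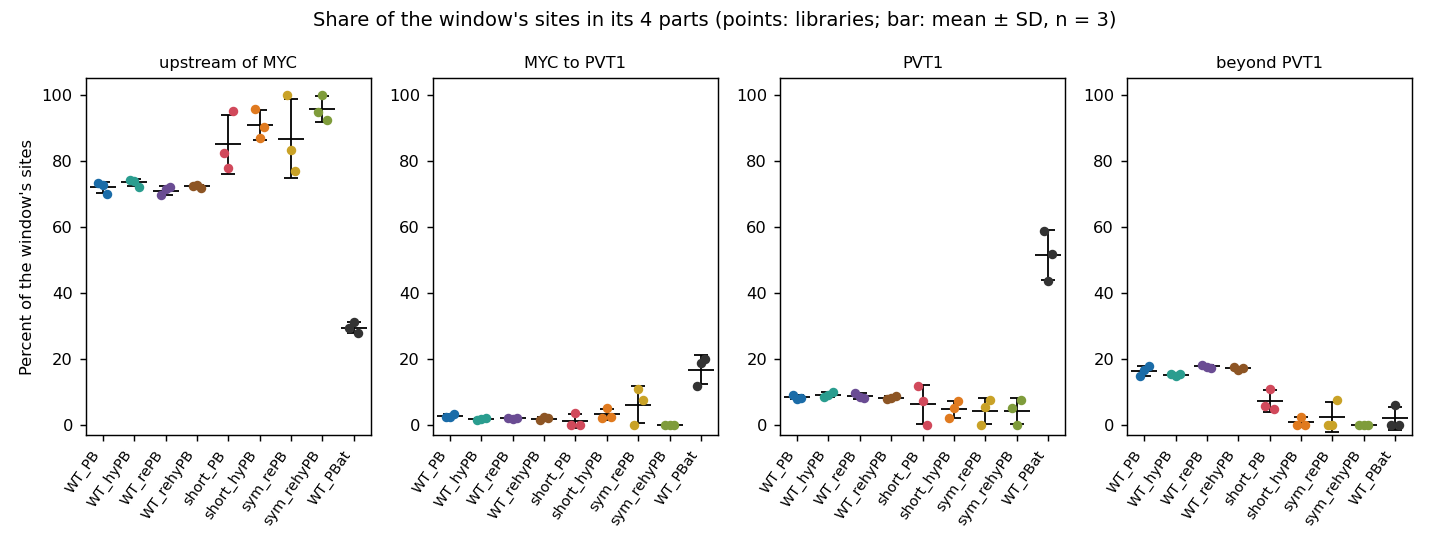
Percent of the window's sites (vertical axis) upstream of MYC, from MYC to PVT1, in PVT1 and beyond PVT1, for every library by group. Points are libraries and bars are mean ± SD (n = 3). The piggyBat libraries lie below all others upstream of MYC and above all others in PVT1.

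Many positions were hit again in several libraries. Of the 5441 positions, 2465 were seen in 1 library only, 95 in at least 12 libraries and 9 in at least 18. The 2 fullest steps held 71.6% of the 95 and all of the 9, against 11.6% of all positions. These steps were chosen by sites counted in each deep library, so positions listed in many libraries weighed more in that choice. The concentration partly follows from it. The position found most often was chr8:127253840 in CASC21, in 24 libraries and all 9 groups, followed by chr8:127254091, also in CASC21, in 23 libraries and 8 groups. Next came, each in 22 libraries, chr8:127209431 in CCAT1, chr8:127249095 and chr8:127250125 in CASC21, and chr8:127294695 where CASC21 and CASC8 overlap. A site listed in several libraries can be a separate event at the same TTAA or material shared between libraries, and these were not told apart by the files.

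Sharing between replicates was higher in the window than in the genome for each group. In WT_PB 51.4% of window sites were seen in another replicate, against 31.0% of all sites. The values were 49.5% and 29.4% in WT_rePB, 58.0% and 30.1% in sym_rehyPB, and 21.8% and 13.6% in short_PB. Of the distinct window positions of the shallow groups, 79 of 90 (short_PB), 84 of 90 (short_hyPB), 37 of 42 (each symmetric group) and 35 of 42 (piggyBat) were also listed in a deep library. The same share over the whole genome is not given here, so these counts cannot be read as particular to the locus.

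The 42 piggyBat positions lay 12 upstream of MYC, 7 from MYC to PVT1, 22 in PVT1 and 1 beyond it. Of the 42, 36 were also listed in a piggyBac library, a count that likewise has no share over the whole genome beside it. Positions in all 3 piggyBat libraries included chr8:127737093 in MYC, chr8:127842271 in PVT1, and chr8:127250369 and chr8:127254091 in CASC21.

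Sites within the PVT1 gene were uneven in orientation. The strand column of the lists was plus for 38.6% ± 6.07 of PVT1 sites in WT_PB and 35.7% ± 4.12 in WT_rePB, and for 38.5% ± 2.73 and 38.7% ± 6.11 in their hyperactive counterparts (SD, n = 3). All 12 deep libraries lay under 50%, between 31.1% and 45.8%. Upstream of MYC the group means were 49.2% to 51.5% and in the whole genome 49.8% to 49.9%. PVT1 was not alone in this. The means of the deep groups were 34.4% to 47.6% from MYC to PVT1, and 25.6% to 40.7% in the MYC gene, from few sites. In CASC8 they were 52.8% to 56.1%, with every deep library over 50%. In WT_PBat 14 of the 30 PVT1 sites were plus. A gene's own strand was not used here, so these values are of the genome's plus strand.

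Positions hit in both orientations within 1 library made up 17.9% to 22.7% of sites in the 2 fullest steps of the deep groups, 9.0% to 13.1% in the window and 3.8% to 6.5% in the genome. Neighbouring positions were a median of 107 bases apart in the 2 fullest steps and 212 in the window. The longest stretches without a site in any library lay beyond PVT1, at 40.1 kb (chr8:128800327-128840471), 30.3 kb and 28.0 kb.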

How the data were processed

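The members, gene lists and tests were chosen with earlier results of these data known. The authors deposited 1 peak list per library, whose coverage values are unscaled signal (summed coverage and peak height, at least 5). A last constant column was read as the library total, 142666 to 12051190, which no label states. The submitters' processing notes name cutadapt 3.4, HISAT2 2.2.1.0, hg38 and GRCh38.p5; the peak caller is not given in the sources used here. A site was the first of the 4 target bases, read by strand, and each position was counted once per library. In promoter windows of RefSeq (GRCh38.p14) outside chromosome 8, 95.3% to 100% of 43 to 3262 sites per library were TTAA.

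Site counts per window, bin, step and gene were tested with a quasi-Poisson model (R 4.3.3, limma 3.58.1 for variance shrinkage), separate dispersions for deep and shallow libraries, at least 10 sites in at least 3 libraries, and Benjamini-Hochberg adjusted p under 0.05. It replaced limma voom, the first design, which on simulated data gave 5167 false calls of 9528 genes for short_PB against WT_PB, where the quasi-Poisson test gave at most 10 in any comparison. That test recovered 92% of the windows changed 4-fold and 53% of those changed 2-fold in the data made for that comparison, and 0% of the genes changed 4-fold. Of windows changed 2-fold it recovered 16% for sym_rePB against WT_rePB and 40% for piggyBat. Of bins changed 4-fold it recovered 25% (short_PB), 0% (sym_rePB) and 18% (piggyBat). Shares were tested by exact permutation (Python 3.11.15, scipy 1.17.1). Same-numbered libraries deviated together in WT_rePB and WT_rehyPB (correlations 0.138 to 0.139) and in no other pair of groups by the rule that all 3 exceed 0.1.

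Named were the 4 member genes, protein-coding genes of the window, the 6 other window genes with most sites per kb, the steps with the 5 highest and 5 lowest deep means, the fullest step of each group and steps called, MAX network genes called, the 5 genes most like PVT1 and the 6 positions in most libraries. Alternatives are given in the closing section. Sequence of the locus was not used here.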

Additional observations from a re-analysis of the deposited data

How the results depend on the processing

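Over 75 results, 1387 alternative values were computed, of which 1195 kept direction and side of the threshold, 93 lost a call, 24 gained one and 75 changed sign. The setting that mattered most was the set of sites. With the tallest sites only, the window gave 0.10 for re-engineering, -0.42 for the short and -0.17 for the symmetric transposon. With heights thinned to equal totals it gave -0.34 (hyperactive), -0.93 (short) and 0.60 (symmetric). Thinning left 126 to 538 sites in each deep library and 803 to 6904 in each of the others. It thus reversed the order of depth and did not match the libraries, and values that rest on thinned deep libraries come from few sites. The thinned setting was not run for the parts, because some libraries then had no window site. The piggyBat window difference was 0.35 on the median scale and 0.33 over the rest of chromosome 8, and re-engineering was called with orientations counted apart (-0.064). The causes were not tested.

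For the shares of the parts, the tallest sites gave 3.81 (re-engineering), 3.68 (short) and 3.08 (symmetric) percentage points upstream of MYC, 2.83, 4.67 and -1.48 in PVT1, and -2.71, -6.36 and -4.03 beyond, where the hyperactive value was -1.85. Orientations counted apart gave 0.088 for re-engineering in PVT1. Counting MYC and PVT1 as 1 part gave -3.26 for the symmetric transposon. With the linked libraries counted once, re-engineering beyond PVT1 gave 1.47.

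Over 108 pairs of same-numbered libraries the correlation of deviations ran from -0.0715 to 0.151, and 6 were over 0.1. Of the pairs of groups, WT_rePB with WT_rehyPB had all 3 over 0.1 (0.138 to 0.139) and no other did. In these 6 libraries the replicate block gave 0.12 for the window and 0.28 for the bin with CCAT1, both called, as without it. With a replicate block the differences in shares stayed as they were, at 15.2 and 19.5 points upstream, -4.30 in PVT1, and -2.70, 1.59, -11.9 and -16.3 beyond, and their adjusted p became 0.104, or 0.179 for re-engineering, the block leaving fewer permutations. The block also ended the re-engineering calls of CASC21 (-0.19) and the left one of the 2 fullest steps (-0.27).

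Leaving out 1 library at a time, the window ranged from 0.08 to 0.18 (hyperactive), -0.06 to -0.04 (re-engineering), 0.64 to 0.79 (short), 0.97 to 1.18 (symmetric) and -0.21 to -0.05 (piggyBat), and no call changed. The shares upstream of MYC ranged from 3.14 to 6.02 (hyperactive, called without short_PB replicate 3 and without sym_rePB replicate 1), -1.55 to -0.70, 12.7 to 17.1, 16.2 to 22.0 and -43.4 to -41.7 points in the same order of comparisons. From MYC to PVT1 they ranged from -2.11 to -0.72, -0.44 to -0.20, -0.80 to 0.12, -0.17 to 2.60 and 12.3 to 16.4, in PVT1 from -1.14 to 0.33, -0.42 to 0.035, -4.52 to -1.58 (called without short_PB replicate 1), -5.14 to -3.20 and 39.4 to 46.9, and beyond from -3.02 to -2.06, 1.21 to 1.95, -12.8 to -11.3, -17.5 to -15.6 and -16.5 to -13.4. The bins and genes whose sign turned ranged from -0.36 to 0.15 (bin at 127.5 Mb, hyperactive), -0.098 to 0.0066 (bin with CCAT1, WT_rehyPB against WT_hyPB), -0.48 to 0.018 (bin at 127.5 Mb, short), -0.80 to 0.17 (the same bin, symmetric), -1.70 to 0.13 (bin at 128 Mb, piggyBat), -0.11 to 0.17 (CASC8, hyperactive), -0.19 to 0.28 (PVT1, hyperactive), -0.52 to 0.28 (PVT1, short) and -0.22 to 0.58 (PVT1, symmetric).

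For single genes and bins, signs turned as follows. Over the tallest sites: CASC8 -0.67 and PVT1 -0.066 (hyperactive); CASC21 0.39, CASC8 0.25 and PVT1 0.87 (re-engineering); CCAT1 -1.01, CASC21 -0.10, CASC8 -0.86 and PVT1 0.79 (short); CCAT1 -0.41, CASC8 -1.06 and PVT1 -0.076 (symmetric). With thinned heights (few sites left in the deep libraries): CASC21 -0.17 and CASC8 -0.41 (hyperactive), CCAT1 -1.12, CASC21 -1.28 and CASC8 -1.63 (short) and CASC8 -1.96 (symmetric). On the median scale: CASC8 -0.053 (short) and -1.09 (symmetric), and PVT1 -1.70 (symmetric), values that at low depth rest largely on the added count of 0.5. For the hyperactive pairs of the window, thinned heights gave -0.34 (WT_hyPB against WT_PB) and -1.62 (WT_rehyPB against WT_rePB), and the tallest sites -0.55 in the latter. limma voom and limma-trend gave 0.046 and 0.042 for the bin at 127.5 Mb (hyperactive) and 0.015 and 0.016 for PVT1 (short).

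With limma voom, counts of calls moved from 62 to 6795 genes (short), 76 to 8535 (symmetric) and 153 to 5923 (piggyBat), and from 361 to 2031, 163 to 2243 and 325 to 2025 bins. With limma-trend they were 7170, 8559 and 6591 genes, and 2038, 1979 and 2085 bins. Re-engineering went from 230 to 117 windows, 265 to 69 bins and 208 to 34 genes, and from 280 to 976 steps. For re-engineering limma-trend gave 4 windows, 14 bins, 85 genes and 960 steps. With linked libraries counted once, piggyBat calls went from 153 to 45 genes and 325 to 109 bins, short calls from 361 to 205 bins and symmetric calls from 76 to 50 genes. The replicate block gave 116 genes and 166 steps (re-engineering), 231 bins (short) and 50 genes (symmetric). Without the filter, gene calls were 37 (re-engineering), 26 (short), 36 (symmetric) and 77 (piggyBat), and step calls 124. On the median scale, gene calls were 628 (short, 42 higher) and 1952 (symmetric, 42 higher), against 58 of 62 and 76 of 76 higher; the windows higher were 245 of 544 (short), 177 of 491 (symmetric) and 255 of 520 (piggyBat), against 183 of 617, 145 of 564 and 181 of 604. The gene calls on the median scale between deep and shallow libraries carry the limit given with PVT1. Orientations counted apart gave 331 genes for re-engineering. Low depth limits the tallest-site and thinned counts, which called 0 to 4 windows (13 to 167 under an unadjusted p of 0.05) and 0 genes (0 to 247) in each comparison. limma voom was not run on these counts.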
